A study of Mus musculus with 6 samples.

Results

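The Hox genes of mouse kidney cells were examined in single cells sorted through a mesenchyme gate and an endothelia gate. Members were all gene symbols of the count tables made of Hox, a cluster letter from a to d and a number, which gave 39 of 23998 symbols. The choice used the symbol alone and no measured value. Of the 39, 11 belong to the Hoxa cluster on chromosome 6, 10 to Hoxb on chromosome 11, 9 to Hoxc on chromosome 15 and 9 to Hoxd on chromosome 2.

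Cells were taken from enzymatically digested kidneys by cell sorting and read with Smart-seq2, a plate method that sequences whole transcripts of the cell in each well. Each of 6 plates combined cells of 3 mice, of which 1 was healthy and the others had undergone 2 or 10 days of UUO (unilateral ureteric obstruction), the ligation of a ureter, which injures the tubules of that kidney and is used as a model of fibrosis. Plate layouts list, for each well, its gate, its condition and a number (1 to 4), and this number was taken to mark the mouse, so that each condition has n = 4 mice and each gate n = 12. The labels name no strain, age, sex or genotype and do not say which surface markers or reporters set the gates.

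Hox genes encode homeodomain transcription factors that lie in order along their clusters, and genes at the same place in different clusters form a numbered paralog group. In the embryo low-numbered groups are active from anterior levels and high-numbered groups only at posterior levels, and many adult cells keep a record of this position. In the kidney, the paralogs of group 11 are known for their part in the induction of the ureteric bud by the metanephric mesenchyme, and those of group 10 for the patterning of the kidney stroma.

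Of 2292 sorted wells, 2235 held at least 1000 genes and 20000 reads on genes and were kept, 1106 in the mesenchyme gate and 1129 in the endothelia gate. Median depth per well ran from 312617 to 447221 reads over the 6 pairings of gate and condition. The level of Pdgfrb, a growth factor receptor of mesenchymal cells, was 656.9 to 1184 CPM (CPM are reads of a gene scaled to a common library size, over the summed wells of a mouse, with Hox levels scaled by TMM, the trimmed mean method of edgeR) in the mesenchyme gate and 0.273 to 61.0 CPM in the endothelia gate. That of Pecam1, which joins endothelial cells, was 1882 to 2768 CPM in the endothelia gate and 0.529 to 13.1 CPM in the mesenchyme gate. All 10 mesenchymal markers were also read in the endothelia gate, with a summed level of 32.4 to 922 CPM against 23260 to 39966 CPM in the mesenchyme gate. The 10 endothelial markers summed to 148 to 690 CPM in the mesenchyme gate and to 17377 to 26178 CPM in the endothelia gate. In the 12 control wells 5 held any Hox read, 6 reads over 5 genes, with at most 1 read of a gene.

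Nearly every cell of either gate held Hox transcripts, and mesenchyme-gate cells held more kinds of them. A mesenchyme-gate well held reads of 7.17 ± 0.79 Hox genes and an endothelia-gate well of 3.55 ± 0.43 (mean and SD over 12 mice). The lowest mouse of the mesenchyme gate stood at 6.34 genes and the highest of the endothelia gate at 4.08, so that the gates did not overlap. No Hox read was found in 6 of 1106 mesenchyme-gate wells and in 54 of 1129 endothelia-gate wells. With every well thinned to 100000 reads, for which 1072 and 1096 wells were deep enough, the values were 6.28 ± 0.71 and 3.00 ± 0.32. Mesenchyme-gate wells also held more genes of any kind. Before thinning, medians per well were 3317, 3531.5 and 3591 genes in healthy, day 2 and day 10 mice. In the endothelia gate they were 2831.5, 3015 and 3291. The part of this difference in the Hox counts was not tested. The summed level of all 39 genes was 550 to 758 CPM in the mesenchyme gate and 320 to 532 CPM in the endothelia gate. In such sums, fewer cells that express a gene and less RNA per cell cannot be told apart, so the share of wells with a read is given beside the level.

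**Figure D1:**
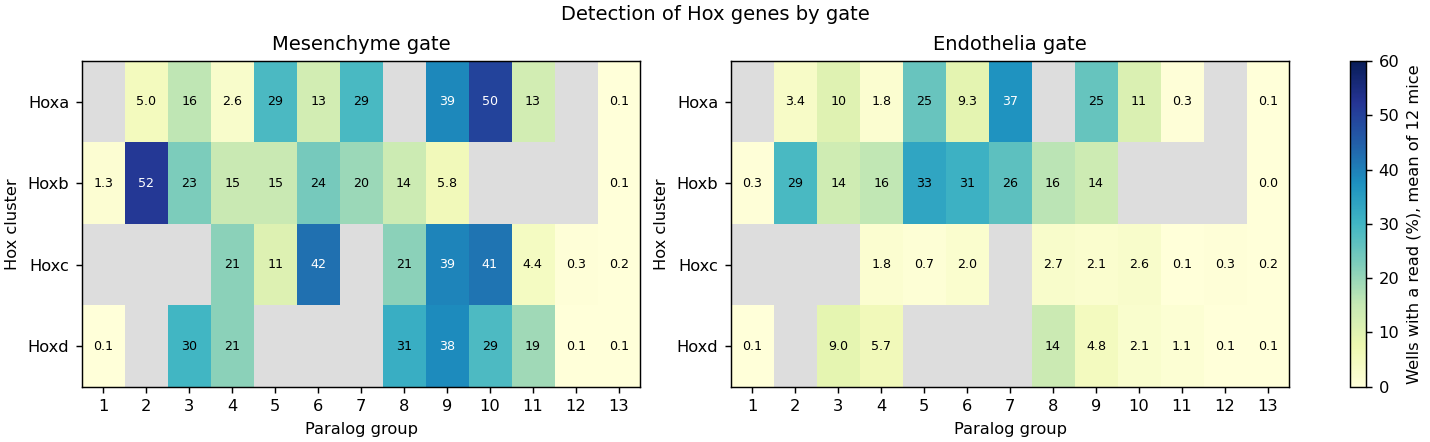
Share of wells with at least 1 read of a Hox gene, as the mean of 12 mice, in the mesenchyme gate (left) and the endothelia gate (right). Rows are Hox clusters, columns are paralog groups, and grey marks places with no gene or no value shown. The Hoxc row is filled in the mesenchyme gate, with a mean of 84.1% of wells holding a Hoxc read, and nearly empty in the endothelia gate (7.95%).

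The gates differed by cluster and by paralog group, as the grid of detection by gene shows. Reads of the Hoxc cluster were found in 84.1% ± 4.6 of mesenchyme-gate wells and in 7.95% ± 2.97 of endothelia-gate wells (mean and SD, n = 12 mice). Reads of the Hoxd cluster were found in 80.4% ± 6.2 and 27.2% ± 6.1. The Hoxa cluster was nearer, with 86.4% ± 4.0 and 70.7% ± 5.5, and the Hoxb cluster had 81.4% ± 4.6 in the mesenchyme gate and 83.2% ± 5.6 in the endothelia gate. For Hoxc and Hoxd no mouse of one gate reached the range of the other, while for Hoxb the ranges overlapped.

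Among the paralog groups, the widest gaps were at the posterior end of the clusters. Group 11 was read in 29.5% ± 6.1 of mesenchyme-gate wells (19.7% to 37.6% over mice) and in 1.33% ± 1.37 of endothelia-gate wells (0% to 4.76%). Group 10 was read in 75.4% ± 5.1 (65.6% to 82.4%) and in 13.8% ± 6.6 (4.69% to 28.1%). Group 9 was read in 75.2% ± 7.1 and 37.3% ± 6.6, and none of these 3 groups overlapped between gates. Groups 2, 3, 4, 6 and 8 were also read in more mesenchyme-gate wells, with means of 48.6% to 60.3% against 23.0% to 37.1%. Of these, groups 3, 4 and 8 did not overlap between gates either, while groups 2 and 6 did. Lack of overlap was thus not particular to the posterior groups, and it was not counted over all genes.

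Groups 5 and 7 were the groups with the larger share in the endothelia gate. Group 5 was read in 44.4% ± 6.9 of mesenchyme-gate and 47.9% ± 7.3 of endothelia-gate wells, and group 7 in 41.1% ± 8.1 and 51.7% ± 4.9, with ranges that overlapped for both. Group 1 was rare in both gates (4.51% ± 1.78 and 2.82% ± 1.68). Group 12 was read in 4 of 1106 mesenchyme-gate and 5 of 1129 endothelia-gate wells, and group 13 in 6 and 5. Counting wells by the highest-numbered group they held, 553 of 1106 mesenchyme-gate wells ended at group 10 and 29.8% at group 11. In the endothelia gate 29.5% of wells ended at group 9, 19.7% at group 7, 12.8% at group 10 and 1.42% at group 11.

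Levels were compared between genes as CPM per kb of annotated exon. In the mesenchyme gate the highest levels were those of all 3 members of group 10, Hoxd10 at 29.3 ± 8.9, Hoxc10 at 24.7 ± 5.1 and Hoxa10 at 20.7 ± 4.9 CPM per kb (mean and SD, n = 12 mice). Hoxd9 followed at 18.4 ± 4.1 and Hoxb7 at 16.8 ± 6.0, and neighbours in this order differed by less than their SD. The order depends on the length of all annotated exons, and which transcripts were expressed was not examined. Hoxa9, with 5580 bases of exon, was in place 9 per kb. Its mean of 65.1 CPM without this scaling was above those of Hoxd10 (53.3) and Hoxc10 (47.2) and below that of Hoxa10 (67.6). In the endothelia gate Hoxb7 led at 34.6 ± 8.7 CPM per kb. After it came Hoxa7 at 17.7 ± 3.8, Hoxa5 at 16.9 ± 4.8, Hoxb6 at 15.4 ± 8.1, Hoxb5 at 14.9 ± 4.0 and Hoxb9 at 13.95 ± 5.5, which were within their SD of each other. The first group 10 member in that order was Hoxa10, in place 10 with 4.14 ± 3.08 CPM per kb.

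The comparison of the gates asks which Hox genes differ between mesenchymal and endothelial cells of the same kidneys. Over the mean of the 3 conditions, 17 Hox genes were higher in the mesenchyme gate, 5 were higher in the endothelia gate and 10 did not pass (edgeR quasi-likelihood test on sums per mouse and gate, with the mouse as a block, Benjamini-Hochberg adjusted p under 0.05 over all genes). Of all 16116 genes tested, 38.7% passed, 19.6% higher and 19.1% lower in the mesenchyme gate. The median difference of the 32 Hox genes tested was 1.25 on the log2 scale, against 0.08 over all genes. All 7 tested Hoxc genes and all 6 tested Hoxd genes were higher in the mesenchyme gate. Of the Hoxb genes 2 were higher there and 4 lower, and of the Hoxa genes 2 were higher, 1 was lower and 7 did not pass. All 22 calls were also made with DESeq2 and with another scaling of the sums.

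**Figure D2:**
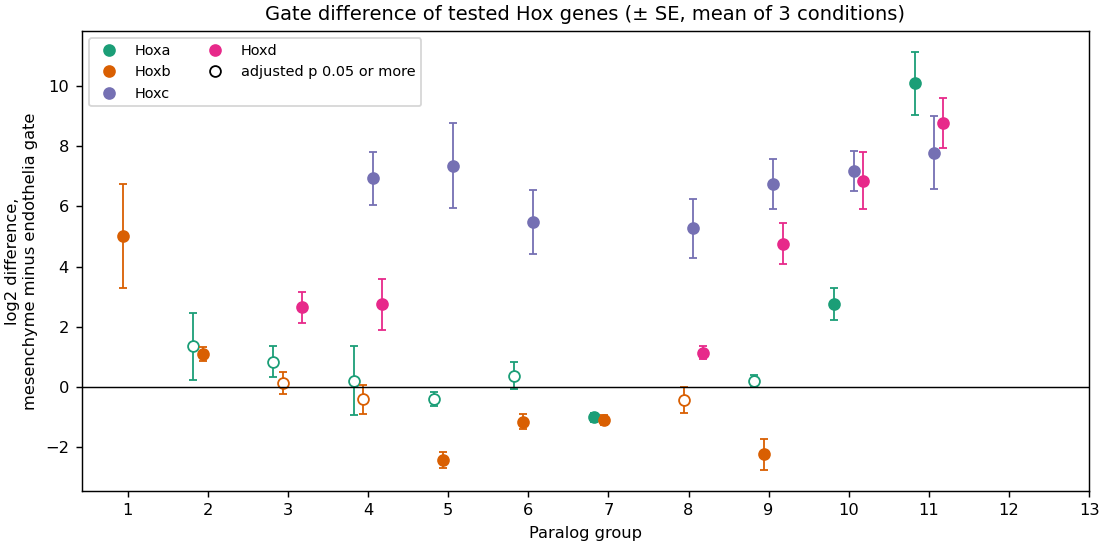
Difference in log2 level between the gates (mesenchyme minus endothelia, mean of the 3 conditions, bars ± SE) for tested Hox genes by paralog group and cluster. Filled points passed an adjusted p under 0.05. The Hoxc and Hoxd points and groups 10 and 11 lie above 0, and Hoxb5, Hoxb6, Hoxa7, Hoxb7 and Hoxb9 lie below it.

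Of the group 11 genes, which act in the metanephric mesenchyme, all 3 were higher in the mesenchyme gate. Hoxa11 (chromosome 6, 52242106 to 52245810 of GRCm38) stood at 6.44 to 34.9 CPM over the 12 mice of the mesenchyme gate (median 17.4). In the endothelia gate it had 38 reads in 4 of 1129 wells of 3 mice, with 0 to 0.712 CPM. Its fitted difference was 10.09 ± 1.04 log2 (adjusted p = 4.58e-06), and the gates did not overlap. Exons of Hoxa11 share 34.98% of their length with the antisense gene Hoxa11os, and reads of these genes cannot be told apart without strand, which is not stated.

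Hoxd11 (chromosome 2, 74679557 to 74687016) stood at 13.4 to 26.8 CPM in the mesenchyme gate (median 16.5) and at 0 to 0.398 CPM in the endothelia gate (37 reads in 14 wells). The difference was 8.78 ± 0.83 log2 (adjusted p = 2.15e-06). Hoxc11 was the rarest of the group, with 615 reads in 48 mesenchyme-gate wells and 1 read in the endothelia gate, a ratio of 696 with a counting interval of 124 to 27526. Reads carry no molecular identifiers, so intervals cover counting error only. Fitted differences of genes this close to 0 in a gate depend on the prior count of the model and are not bounds.

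The 3 genes of group 10, which pattern the kidney stroma, were also higher in the mesenchyme gate in 12 of 12 mice. Hoxa10 stood at 40.8 to 84.3 CPM (median 71.7) in the mesenchyme gate and at 0.411 to 32.9 CPM (median 9.95) in the endothelia gate, a difference of 2.76 ± 0.53 log2 (adjusted p = 0.000961). Hoxc10 stood at 32.4 to 68.9 CPM (median 48.1) and at 0 to 2.92 CPM (median 0.355), a difference of 7.18 ± 0.67 log2 (adjusted p = 1.85e-06). Hoxd10 stood at 21.5 to 71.3 CPM (median 49.97) and at 0 to 5.29 CPM (median 0.217), a difference of 6.86 ± 0.96 log2 (adjusted p = 7.14e-05). None of the 3 overlapped between gates, and Hoxa10 was the member with a level in the endothelia gate that was above 0 in every mouse.

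**Figure D3:**
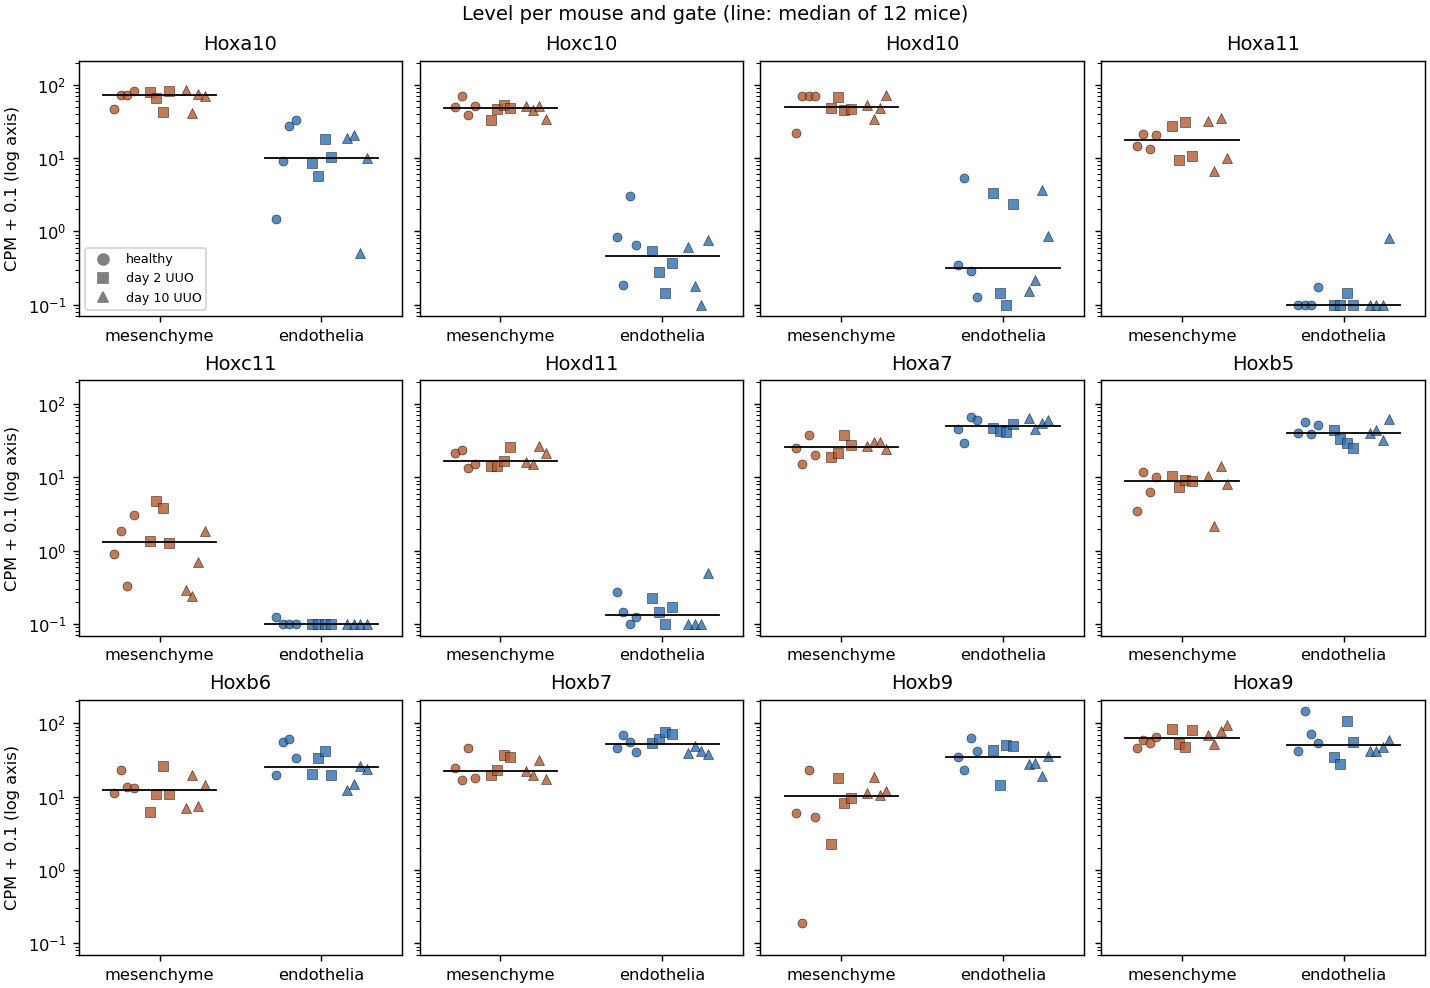
Level of 12 Hox genes in each of 12 mice per gate, as CPM plus 0.1 on a log axis (circles healthy, squares day 2 UUO, triangles day 10 UUO, line the median). Groups 10 and 11 separate the gates with the mesenchyme gate above, Hoxb5 separates them with the endothelia gate above, and Hoxa9 overlaps.

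Promoter sequence is shown for the group 11 genes Hoxa11 and Hoxd11, the members with the largest differences towards the mesenchyme gate that RefSeq's promoter table holds, and for Hoxa7, which went the other way. The table (GRCm38.p6) had windows for 22 of the 39 Hox genes, 24 in all. Each line gives the 250 bases before a start site, 5′ to 3′ on the strand of the gene, with capitals for TAAT, the core bound by homeodomains, and TGATTNAT, a form of the site of Hox and Pbx pairs, on either strand.
Hoxa11, chr6:52245811-52246060, minus strand: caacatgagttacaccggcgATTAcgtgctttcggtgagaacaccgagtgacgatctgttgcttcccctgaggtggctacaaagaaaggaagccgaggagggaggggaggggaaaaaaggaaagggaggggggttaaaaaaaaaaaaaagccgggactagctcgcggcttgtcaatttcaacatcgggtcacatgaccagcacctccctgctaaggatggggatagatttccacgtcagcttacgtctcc
Hoxd11, chr2:74679308-74679557, plus strand: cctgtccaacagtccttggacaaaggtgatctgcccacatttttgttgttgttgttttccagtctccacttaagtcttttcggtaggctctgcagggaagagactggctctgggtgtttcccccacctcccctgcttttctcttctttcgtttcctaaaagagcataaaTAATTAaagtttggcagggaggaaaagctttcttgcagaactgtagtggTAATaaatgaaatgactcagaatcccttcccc
Hoxd11, chr2:74682073-74682322, plus strand: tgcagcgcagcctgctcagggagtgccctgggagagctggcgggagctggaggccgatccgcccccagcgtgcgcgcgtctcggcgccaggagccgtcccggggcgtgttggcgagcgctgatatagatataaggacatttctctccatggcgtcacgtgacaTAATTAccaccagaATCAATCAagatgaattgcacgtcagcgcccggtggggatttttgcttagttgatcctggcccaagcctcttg
Hoxa7, chr6:52218574-52218823, minus strand: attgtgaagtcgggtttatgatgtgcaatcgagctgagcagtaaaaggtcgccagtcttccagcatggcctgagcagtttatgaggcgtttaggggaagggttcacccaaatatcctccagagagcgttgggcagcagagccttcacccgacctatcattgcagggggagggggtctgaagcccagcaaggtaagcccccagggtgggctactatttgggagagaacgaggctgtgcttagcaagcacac

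The Hoxa11 window held 1 TAAT, the upstream Hoxd11 window 3 and the other Hoxd11 window 2, and the latter also held 1 TGATTNAT. The Hoxa7 window held 0, as did those of Hoxd4 and Hoxd10, which were higher in the mesenchyme gate. Windows of Hoxa10, Hoxb1, Hoxc4, Hoxd3, Hoxd8 and Hoxd9, also higher there, held at least 1. The relation of these counts to the gate differences was not tested. Among all Hox windows 75.0% held TAAT against 54.9% of all 32851 windows in the table, and 8.33% held TGATTNAT (2 windows, of Hoxa2 and Hoxd11) against 2.82%. The median ratio of observed to expected CpG was 0.721 in Hox windows and 0.373 in all windows. These are matches of letters in a window and not measured sites.

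The other Hoxc genes were also near 0 in the endothelia gate. Hoxc8 stood at 6.99 to 34.6 CPM (median 16.7) in the mesenchyme gate and at 0 to 6.54 CPM (median 0.484) in the endothelia gate, a difference of 5.27 ± 0.99 log2 (adjusted p = 0.000825). Hoxc9 stood at 13.97 to 29.2 CPM (median 19.6) and at 0 to 1.25 CPM (median 0.169), a difference of 6.75 ± 0.83 log2 (adjusted p = 2.41e-05). Neither gene overlapped between the gates. Hoxc4, Hoxc5 and Hoxc6 were higher in the mesenchyme gate by 6.94 ± 0.88, 7.35 ± 1.41 and 5.48 ± 1.07 log2 (adjusted p = 3.00e-05, 0.0010 and 0.00113), and each was so in 12 of 12 mice. Hoxc6 was the Hoxc gene read in the most mesenchyme-gate wells, 42.6% against 2.13% in the endothelia gate, with Hoxc10 close at 41.9%. Once wells of epithelial-like or mixed-gate clusters (described below) were left out, this order was reversed. Hoxc6 then stood at 38.4% and Hoxc10 at 41.7% of mesenchyme-gate wells, as means of mice.

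Hoxc reads in the endothelia gate lay mostly in wells that other genes did not place with endothelium. When wells were clustered without Hox genes, 81 endothelia-gate wells (7.17%) fell in epithelial-like clusters or in clusters without at least 80% of wells from that gate, and they held 86.1% of the gate's 2118 Hoxc reads. In the 1048 remaining wells 58 (5.53%) held a Hoxc read and 11 held at least 5, and the level was 0.731 CPM. In the corresponding 954 mesenchyme-gate wells 798 (83.6%) held one and the level was 119 CPM. The 7 Hoxc genes tested passed in the same direction in a fit on these wells alone.

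The differences of the Hoxd genes ran from 1.14 log2 for Hoxd8 to 8.78 log2 for Hoxd11. Hoxd8 stood at 23.2 to 55.6 CPM (median 36.4) in the mesenchyme gate and at 8.49 to 33.6 CPM (median 15.4) in the endothelia gate, a difference of 1.14 ± 0.22 log2 (adjusted p = 0.000962) with overlapping ranges. Hoxd9 stood at 25.9 to 52.1 CPM (median 39.5) and at 0 to 8.25 CPM (median 2.25), a difference of 4.77 ± 0.69 log2 (adjusted p = 9.92e-05) with no overlap. From Hoxd8 to Hoxd11 the fitted difference was larger at each next gene of the cluster, 1.14, 4.77, 6.86 and 8.78 log2. The anterior genes Hoxd3 and Hoxd4 lay above Hoxd8, and differences between genes were not tested.

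At the anterior end of the cluster, Hoxd4 stood at 7.65 to 37.2 CPM (median 17.6) in the mesenchyme gate and at 0 to 13.01 CPM (median 3.14) in the endothelia gate. Its difference was 2.75 ± 0.84 log2 (adjusted p = 0.0197), and without the mice numbered 1 its adjusted p was 0.118. Hoxd3 differed by 2.66 ± 0.52 log2 (adjusted p = 0.00106), higher in 12 of 12 mice. Annotated exons of Hoxd3 and Hoxd4 overlap on the same strand (62.3% and 52.3% of their lengths lie in exons of another gene), so the split of reads between this pair is uncertain.

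Of the Hoxa and Hoxb genes, Hoxb2, which in the embryo patterns the hindbrain, was the anterior member of high level with a call. It stood at 29.0 to 76.0 CPM (median 57.4) in the mesenchyme gate and at 17.5 to 51.4 CPM (median 21.6) in the endothelia gate, a difference of 1.09 ± 0.23 log2 (adjusted p = 0.00179) seen in 11 of 12 mice. Its exons share 27.3% of their length with the antisense gene Hoxb3os. Hoxb1 passed at an adjusted p of 0.0477 (5.01 ± 1.73 log2) on 13 mesenchyme-gate wells and 3 endothelia-gate wells. It lost the call when any of the 4 numbers was left out.

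The 5 genes higher in the endothelia gate belonged to groups 5, 6, 7 and 9. Hoxb5, which is known from the developing vasculature (chromosome 11, 96303336 to 96306121), stood at 2.08 to 14.4 CPM (median 8.84) in the mesenchyme gate and at 25.2 to 61.6 CPM (median 40.3) in the endothelia gate. The difference was -2.42 ± 0.28 log2 (adjusted p = 1.36e-05), and it was the member of these 5 with no overlap between gates. It was read in 14.7% of mesenchyme-gate wells and in 33.9% of endothelia-gate wells. Hoxb9 stood at 0.0908 to 23.3 CPM (median 10.0) and at 14.2 to 62.9 CPM (median 35.2), a difference of -2.23 ± 0.51 log2 (adjusted p = 0.0035) seen in 11 of 12 mice. It was read in 5.75% of mesenchyme-gate wells as the mean of mice, and in 1.92% once wells of epithelial-like or mixed-gate clusters were left out.

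Both genes of group 7 were higher in the endothelia gate in 12 of 12 mice. Hoxa7 (chromosome 6, 52214491 to 52221854) stood at 14.9 to 38.2 CPM (median 26.0) in the mesenchyme gate and at 29.3 to 65.9 CPM (median 50.3) in the endothelia gate, a difference of -0.99 ± 0.15 log2 (adjusted p = 0.000136). Hoxb7 stood at 17.0 to 45.4 CPM (median 22.4) and at 37.7 to 75.9 CPM (median 51.5), a difference of -1.09 ± 0.17 log2 (adjusted p = 0.000164). The ranges of both genes overlapped across mice of different conditions and numbers, while within each mouse the order was the same. Hoxb6 stood at 6.11 to 25.8 CPM (median 12.2) and at 12.1 to 62.0 CPM (median 25.1), a difference of -1.14 ± 0.24 log2 (adjusted p = 0.00196) in 11 of 12 mice. Exons of Hoxa7 share 20.4% of their length with the antisense gene Hoxaas3.

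The 10 genes that did not pass lay in the Hoxa and Hoxb clusters. Hoxa9 was the most abundant of them, at 46.3 to 94.0 CPM in the mesenchyme gate and 28.2 to 145 CPM in the endothelia gate, with a difference of 0.21 ± 0.21 log2 (adjusted p = 0.486). It was nevertheless read in 39.8% of mesenchyme-gate and 25.3% of endothelia-gate wells. Hoxa5 was the second most abundant, with -0.40 ± 0.23 log2 (adjusted p = 0.195). Hoxa13, Hoxb13, Hoxc12, Hoxc13, Hoxd1, Hoxd12 and Hoxd13 were too low to be tested. Each of these 7 was read in 4 wells or fewer of a gate, and Hoxb13 in 0 of 1129 endothelia-gate wells. Against a floor of 3 wells this allows a share of up to 0.266%. That limit takes wells as independent, which wells of a mouse need not be, so it is not a limit over mice.

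Within single conditions the same comparison made fewer calls. In healthy mice 15 Hox genes passed, 10 higher and 5 lower in the mesenchyme gate (background over all genes 21.7%, with 10.2% higher and 11.5% lower). At day 2 UUO 15 passed, 12 higher and 3 lower (19.8% of all genes, 9.35% higher and 10.5% lower), and at day 10 UUO 14 passed, 11 higher and 3 lower (20.1% of all genes, 9.82% higher and 10.3% lower). Leaving out the mice numbered 4 brought these counts to 8, 6 and 7, leaving out those numbered 1 to 8, 7 and 9, and leaving out those numbered 3 brought the day 10 count to 8. Calls over all genes fell as well, in healthy mice from 3504 to 2298 without number 4 and to 2335 without number 1. At day 10 they fell from 3237 to 2241 without number 3. With DESeq2 the healthy count was 24, while 5333 of all 16116 genes passed.

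Clusters of wells that came almost wholly from the mesenchyme gate had unequal shares of wells with posterior Hox reads. Clusters were made without Hox genes and are given here as descriptions, with no test, and wells of a mouse are not replicates. Hoxd11 was read in 57.3% of 89 fibroblast-like wells and in 41.2% of 221 wells of a cluster led by Ephx3, but in 4.65% of 495 wells like vascular smooth muscle, of which 87, 220 and 494 were sorted through the mesenchyme gate. The Ephx3 cluster was itself raised in the smooth muscle markers Myh11, Acta2, Tagln and Des and in 2 pericyte markers. It had none of these smooth muscle markers among its 10 leading genes and was left unnamed. The Hoxd11 share was higher in the Ephx3 cluster than in smooth muscle-like wells in 12 of 12 mice. It was higher in fibroblast-like than in smooth muscle-like wells in 8 of the 8 mice with at least 3 such wells. Hoxa11 was read in 40.4%, 20.8% and 5.05% of these wells. It was higher than in smooth muscle-like wells in 10 of 12 mice for the Ephx3 cluster and in 8 of 8 for fibroblast-like wells. Hoxc11, the rarest of group 11, did not follow this order, with 3.37%, 9.50% and 2.63% of wells. It was lower in fibroblast-like wells than in the Ephx3 cluster in 7 of 8 mice, and than in smooth muscle-like wells in 5 of 8, higher in 1 and equal in 2.

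**Figure D4:**
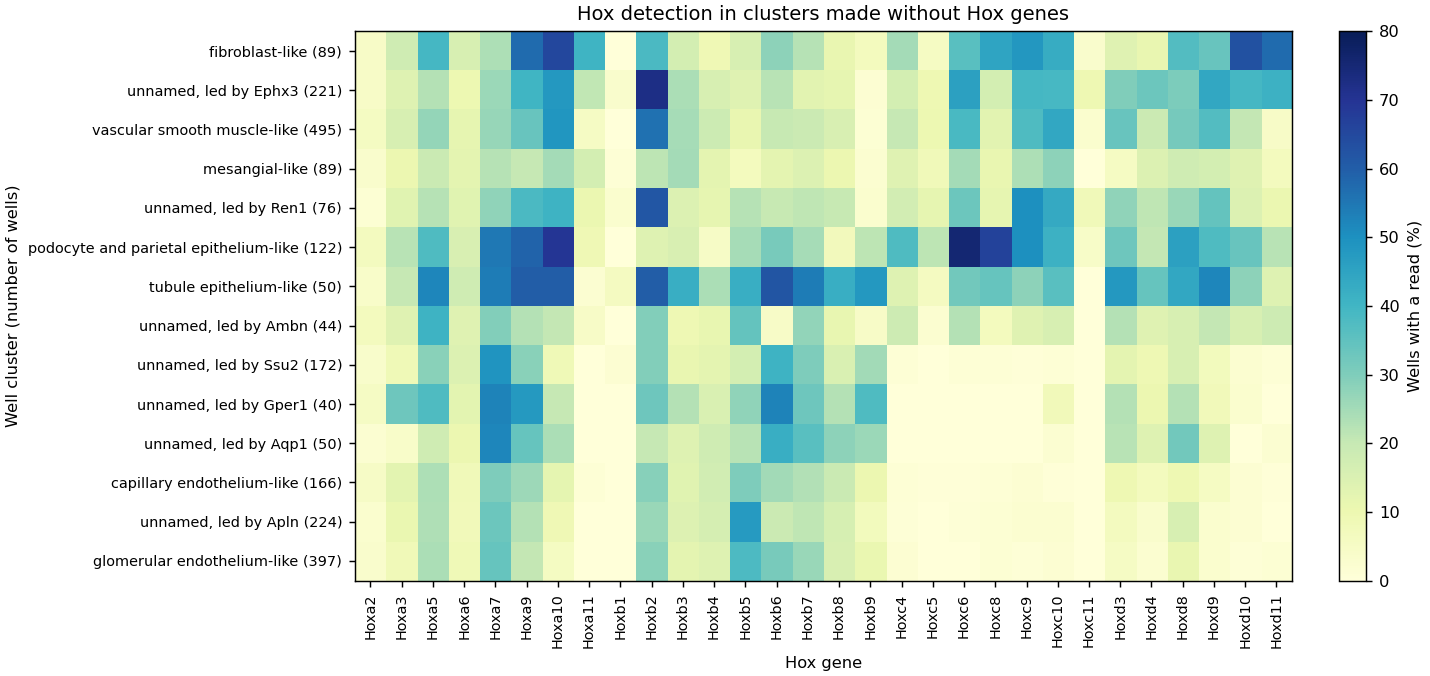
Share of wells with at least 1 read, for Hox genes (columns) read in over 5% of some set of wells, in clusters of wells (rows) made without Hox genes (number of wells in brackets). Hoxd11 is read in 57.3% of fibroblast-like and 4.65% of smooth muscle-like wells, and in the 6 rows at the bottom, from the Ssu2 cluster down, no Hoxc gene is read in more than 7.5% of wells.

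Hoxd10 followed the same order, with 62.9% of fibroblast-like wells, 39.4% of the Ephx3 cluster and 20.4% of smooth muscle-like wells, and Hoxc8 was read in 44.9%, 16.7% and 12.9%. Hoxd3 had the opposite order, with 13.5%, 29.9% and 33.7%, lower in fibroblast-like than in smooth muscle-like wells in 8 of 8 mice. Hoxb2 was read in 38.2%, 72.4% and 56.2%. Hoxc10 was read in 42.7%, 38.9% and 44.0%. In fibroblast-like against smooth muscle-like wells it was lower in 7 of 8 mice, whereas Hoxd10 was higher in 8 of 8. The median well held 304723 reads in the fibroblast-like cluster, 377811 in the Ephx3 cluster and 367119 in the smooth muscle-like clusters, and after thinning to 100000 reads the Hoxd11 shares were 54.0%, 37.7% and 3.46%.

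Mesangial-like wells, of the cells that hold the glomerular capillaries together, had Hoxd11 in 6.74% and Hoxa11 in 16.9% of 89 wells, at a median depth of 239735 reads. A cluster led by Ren1, the gene of renin, had Hoxc9 in 38 of 76 wells and Hoxb2 in 61.8%. A cluster of podocyte and parietal epithelium-like wells had Hoxc6 in 94.4%, Hoxc8 in 85.2%, Hoxa10 in 75.9% and Hoxa7 in 74.1% of 54 wells, and Hoxb2 in 5.56%. Wells like tubule epithelium had Hoxb9 in 48.0% of 50 wells, the highest share of Hoxb9 among these sets of wells.

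Between wells like glomerular endothelium and an endothelial cluster led by Ssu2, Hoxb5 and Hoxb9 had opposite orders. Hoxb5 was read in 38.0% of the 397 wells like glomerular endothelium and in 16.9% of the 172 Ssu2 wells, and was higher in the former in 12 of 12 mice. Hoxb9 was read in 10.8% of the former and in 43 of the 172 Ssu2 wells, higher in the Ssu2 cluster in 11 of 12 mice. In the same order Hoxb6 was read in 31.2% and 40.7% of wells and Hoxa7 in 34.0% and 48.8%, each higher in the Ssu2 cluster in 9 of 12 mice. The opposition did not extend to capillary endothelium-like against glomerular endothelium-like wells. There Hoxb5 was lower in 6 of 8 mice, while Hoxb9 was higher in 4 and lower in 4. A cluster of 224 wells led by Apln, of which 196 came from day 10 mice, also held the glomerular markers Ehd3, Emcn, Plat and Kdr but had none of them among its 10 leading genes, and was left unnamed. It had Hoxb5 in 47.3%, Hoxb9 in 7.14%, Hoxb6 in 18.75% and Hoxa7 in 33.0% of wells. Compared with the Apln cluster, the Ssu2 cluster had Hoxb5 lower in 7 of 8 mice, and Hoxb9 higher in 5 and lower in 3. Hoxa11 was read in 0 of the 397 glomerular endothelium-like wells, which allows a share of up to 0.756%, and in 0 of the 224 Apln wells, which allows up to 1.34%. These limits also use a floor of 3 wells and take wells of a mouse as independent, which they need not be.

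The comparison with healthy kidneys asks whether obstruction changes the Hox genes of either gate. In edgeR no Hox gene passed at day 2 or at day 10, while DESeq2 called Hoxa2 at both days and Hoxb6 at day 10, all in the endothelia gate. Over all 14026 genes of that gate DESeq2 called 439 at day 2 and 760 at day 10. In the mesenchyme gate 32 Hox genes were tested and 0 passed in edgeR at day 2 (0.459% of all genes passed), at day 10 (1.32%) or between the days (0.048%), and 0 had an unadjusted p under 0.05. Among the 19 genes with a mean of at least 10 CPM, differences at day 10 ran from -0.73 ± 0.50 log2 (Hoxd4) to 0.84 ± 1.15 (Hoxb9), with a median SE of 0.37. The group 10 genes Hoxa10, Hoxc10 and Hoxd10 differed by -0.05 ± 0.29, -0.20 ± 0.26 and -0.10 ± 0.37 log2 at day 10, and the group 11 genes Hoxa11 and Hoxd11 by -0.20 ± 0.57 and 0.09 ± 0.41. Ranges of healthy and day 10 mice overlapped for each of these 5 genes, as the plot of levels per mouse shows.

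**Figure D5:**
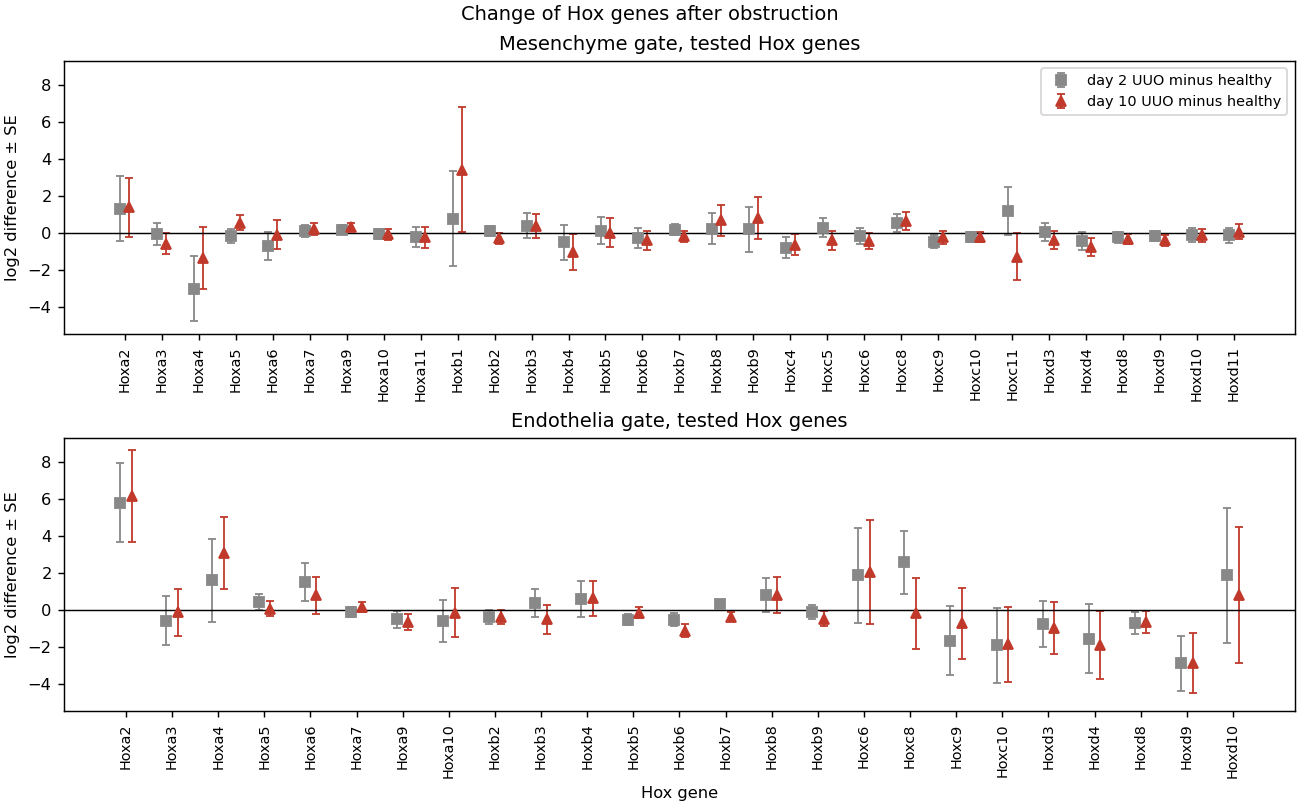
Difference in log2 level from healthy mice at day 2 UUO (squares) and day 10 UUO (triangles), with bars ± SE, for tested Hox genes in the mesenchyme gate (top) and the endothelia gate (bottom). No point passed an adjusted p under 0.05 in edgeR.

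Group 10 was read in 74.3% ± 4.8, 73.8% ± 7.0 and 78.1% ± 3.3 of mesenchyme-gate wells of healthy, day 2 and day 10 mice (mean and SD, n = 4), and group 11 in 25.5% ± 5.6, 31.5% ± 4.5 and 31.4% ± 7.1. No test was made of these shares. The number of fibroblast-like wells was 11 in healthy, 14 in day 2 and 64 in day 10 mice. All 6 fibroblast markers were read, with a summed level of 205 to 1622, 219.5 to 1480 and 499 to 3488 CPM in the 3 conditions, and the part of this shift in the Hox values was not tested. Conditions and gates filled the same columns of every plate, so a condition and its plate columns cannot be told apart.

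In the endothelia gate 26 Hox genes were tested and 0 passed in edgeR at day 2 (0.15% of all genes), at day 10 (0.649%) or between the days (0.0143%). An unadjusted p under 0.05 was reached by 1, 2 and 1 genes. Hoxb6 stood at 19.4, 55.3, 62.0 and 34.0 CPM in the healthy mice numbered 1 to 4 and at 12.1, 14.7, 26.2 and 23.99 CPM in the day 10 mice. It was lower at day 10 for each of the 4 numbers, with overlapping groups, and the difference was -1.09 ± 0.35 log2 (edgeR adjusted p = 0.254). DESeq2 gave an adjusted p of 0.0433 for it.

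Hoxa2, an anterior gene, was listed at 0.0249, 1.91, 0 and 0.0503 CPM in the endothelia gate of healthy mice, at 8.24, 24.9, 0.042 and 8.27 CPM at day 2 and at 3.49, 0.192, 9.23 and 6.01 CPM at day 10. It was read in 38 of 1129 wells of the gate in all, so that these levels rest on few wells. It did not pass in edgeR (adjusted p = 0.469 at day 2 and 0.386 at day 10), and DESeq2 gave adjusted p = 0.00677 and 0.00148. Hoxb7 stood at 54.4, 61.0, 75.9 and 71.8 CPM at day 2 and at 39.4, 48.7, 41.4 and 37.7 CPM at day 10, with no overlap between the days (-0.68 ± 0.23 log2, edgeR adjusted p = 0.58). Its healthy mice stood at 45.6, 69.1, 55.4 and 40.0 CPM, across both ranges.

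Whether the gates changed differently was tested as an interaction, and 0 of 32 Hox genes passed in edgeR at day 2 (0% of all genes passed) or at day 10 (0.0186%). An unadjusted p under 0.05 was reached by 1 gene at day 2, Hoxa6 (-2.40 ± 1.11 log2, adjusted p = 0.917), and by 0 at day 10. DESeq2 also gave 0 Hox calls in both, while it called 226 and 596 of all 16116 genes.

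RNA of the proteins that bind DNA together with Hox factors also differed between the gates, in both directions. Of 9 genes of the Pbx, Meis and Pknox families, 3 were higher in the mesenchyme gate, 4 were lower and 2 did not pass. Over all genes 38.7% passed, 19.6% higher and 19.1% lower. The median difference of the 9 genes was 0.17 log2 against 0.08 over all genes. Meis2 stood at 114 ± 17.2 CPM in the mesenchyme gate and 651 ± 117 CPM in the endothelia gate (-2.53 ± 0.08 log2, adjusted p = 4.28e-10). Meis1 had the opposite order, with 151 ± 22.4 and 25.9 ± 11.2 CPM (2.66 ± 0.23 log2, adjusted p = 8.15e-07). Meis1 and Meis2 each had 1 direction in 12 of 12 mice. Meis3 and Pknox2 were also higher in the mesenchyme gate (5.34 ± 0.79 and 2.69 ± 0.62 log2), and Pbx3 and Pknox1 lower (-0.87 ± 0.30 and -0.88 ± 0.32 log2).

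Of 18 tested genes that regulate Hox chromatin, 2 were higher in the mesenchyme gate, 4 were lower and 12 did not pass (over all genes 38.7% passed, 19.6% higher and 19.1% lower). Their median difference was -0.20 log2 against 0.08 over all genes. Those lower included Kdm6b, a demethylase of the Polycomb mark on histone H3 (-0.96 ± 0.15 log2), Men1, a partner of the Kmt2a methyltransferase (-0.75 ± 0.18), and Phc2, of the Polycomb group (-0.54 ± 0.13). Those higher were Psip1 (0.54 ± 0.19) and the Polycomb gene Ring1 (0.78 ± 0.28).

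Noncoding genes of the Hox clusters were low. Of 6 tested, 3 were higher in the mesenchyme gate and 3 did not pass (19.6% of all genes were higher). Hoxa11os stood at 13.4 ± 5.3 CPM in the mesenchyme gate and at 0.252 ± 0.515 CPM in the endothelia gate (8.31 ± 1.25 log2, adjusted p = 0.000422), higher in 12 of 12 mice as was Hoxa11. Haglr, from the Hoxd cluster, stood at 2.02 ± 1.76 and 0.0852 ± 0.171 CPM (6.05 ± 1.30 log2, adjusted p = 0.00228). Hotair, from the Hoxc cluster, had 440 reads in the mesenchyme gate (1.27 ± 1.64 CPM) and 0 in the endothelia gate (edgeR adjusted p = 0.0418). Against a floor of 3 reads over the gate this is 166-fold. That value covers counting error only and is not a lower bound, since reads carry no molecular identifiers.

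Of 15 tested genes of kidney regional identity, 10 were higher in the mesenchyme gate, 0 were lower and 5 did not pass (19.6% and 19.1% of all genes were higher and lower), with a median of 5.12 log2 against 0.08 over all genes. Gdnf, the ligand by which metanephric mesenchyme attracts the ureteric bud, stood at 22.3 ± 7.8 and 0.375 ± 1.22 CPM (9.35 ± 1.02 log2, adjusted p = 8.05e-06). Gata3 stood at 229 ± 70.6 and 2.59 ± 3.41 CPM (7.78 ± 0.86 log2, adjusted p = 8.99e-06). Pax8 (6.07 ± 0.70 log2), which marks renal epithelium, and Tcf21 (5.50 ± 1.08 log2), of stromal cells and podocytes, followed. Of the mesenchyme-gate wells, 152 lay in epithelial-like or mixed-gate clusters, and their part in these values was not tested.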

How the data were processed

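The deposited tables held raw read counts per gene and well, 1 table per plate, and the authors aligned reads with STAR to mm10, per the submitters' processing notes; the counting tool, annotation and strand are not given in the sources used here. The deposited plate layouts (unit: other) gave gate, condition and number. Wells with at least 1000 genes and 20000 reads were kept, and counts were summed per mouse and gate into 24 sums of 19382742 to 56326210 reads. The sums were tested with edgeR 4.0.16 in R 4.3.3 (quasi-likelihood, TMM, low genes filtered), with Benjamini-Hochberg adjusted p under 0.05 over all genes tested. Gate comparisons had the mouse as a block, since both gates come from the same animal as the number was read. Condition comparisons were fitted within a gate with the number as a block. Plates 1 and 2 held number 1, plate 3 number 2, plate 4 number 3, and plates 5 and 6 number 4. Number and plate therefore cannot be told apart, in the block or when a number is left out. Deviations of same-numbered sums of different conditions correlated at r = 0.0061 to 0.168, and those of both gates of a mouse at 0.0033 to 0.108. That the number marks the mouse is an assumption, and p-values measure the spread between these sums.

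The members and lists were chosen with earlier results of these data known. All Hox symbols could be named, with values over mice for up to 16 called members by mean level. Other genes were named from the lists of cofactors, chromatin regulators, cluster noncoding genes and regional factors, up to 4 per list and direction by smallest p among those that passed. Clusters were made with scanpy 1.11.5 from 2000 variable genes without Hox genes, 30 components, 15 neighbours and Leiden resolution 1. A cluster was named only where at least 3 markers of the name were raised in it and at least 1 stood among its 10 leading genes; the latter condition was added after seeing the data. Gene positions and exon lengths came from GENCODE on GRCm38, the same assembly as mm10, and promoters from RefSeq. The test was checked on simulated counts with 200 genes changed by 2 on the log2 scale. For the gate comparison 200 were recovered among 16116 genes. For day 10 against healthy 199 were recovered among 14582 in the mesenchyme gate and 199 among 14026 in the endothelia gate. The simulation gave every gene the same dispersion and changed only genes above a floor of level. The spread of the Hox genes was not modelled, so this recovery does not measure the power to detect their changes. Alternatives were DESeq2 1.42.0, RLE scaling, no filter, no block, sums per plate, all sorted wells, gate-concordant wells, thinned wells, at least 5 reads, and leaving out each number. An alternative without wells of epithelial-like or mixed-gate clusters was chosen after seeing the data. Spike-in counts were not used. Results for some genes are not reported here.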

Additional observations from a re-analysis of the deposited data

Results flagged for a closer look

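In 4 of 48 groups of 4 mice a sample stood far from the other mice of its group relative to the group's range, and chance alone does so in about 1 in 20 groups. Hoxa2 stood at 1.91 CPM in the endothelia gate of the healthy mouse numbered 2, above the other 3 mice. Hoxa6 stood at 4.99 CPM in the mesenchyme gate of the healthy mouse numbered 2. The summed Hoxc cluster stood at 12.5 CPM in the endothelia gate of the day 10 mouse numbered 1. The summed Hoxd cluster stood at 43.6 CPM in the endothelia gate of the day 2 mouse numbered 4.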

How the results depend on the processing

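Over the mean of conditions, the 22 gate calls were all kept with DESeq2, RLE scaling, all sorted wells and gate-concordant wells. Hoxb1 was lost with no filter, with sums per plate and without epithelial-like or mixed-gate clusters (21 calls). Sums per plate count the mice numbered 1 and 4 more than once as replicates. Leaving out a number gave 20 to 21 calls, 15 to 16 higher and 5 lower in the mesenchyme gate. Single conditions moved more. Leaving out a number gave 8 to 14 calls in healthy mice (7 to 10 higher, 1 to 4 lower), 6 to 12 at day 2 (6 to 9 higher, 0 to 3 lower) and 7 to 10 at day 10 (6 to 8 higher, 1 to 2 lower). Over all genes these fits called 2298 to 2919, 2035 to 2666 and 1998 to 2462. DESeq2 gave 24 calls in healthy mice, 19 of them higher, and 5 lower at day 2, as did leaving out wells of epithelial-like or mixed-gate clusters. Of all 16116 genes DESeq2 called 5333 in healthy mice and 5011 at day 2. For endothelia, DESeq2 called 1 gene at day 2 (Hoxa2, 6.02 log2) and 2 at day 10 (Hoxa2, 6.46, and Hoxb6, -1.10). There edgeR called 0, and the cause was not tested. Over all genes DESeq2 called 439 of 14026 at day 2 and 760 at day 10, against 21 and 91 in edgeR. Hox genes per well were 5.44 and 2.64 in the mesenchyme and endothelia gates at 5 reads or more, 6.28 and 3.00 after thinning, and 6.91 to 7.42 and 3.49 to 3.61 without a number.

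Without the replicate block the gate comparison gave 16, 15, 16 and 22 calls in healthy, day 2 and day 10 mice and over their mean, and the condition comparisons 0. Of all 16116 genes the gate comparison then called 3628, 3330, 3342 and 6657. Same-numbered sums of different conditions did not all correlate above 0.1, so the pairing across conditions rests on the number alone. With 4 mice per condition, the median SE in the mesenchyme gate was near 0.37 log2 for genes with a mean of at least 10 CPM. Changes of 1 log2 or more could also miss the threshold. Hoxb6 in the endothelia gate at day 10 did so at -1.09 ± 0.35 log2 (edgeR adjusted p = 0.254). The absence of calls therefore does not exclude changes of that size.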
